A study of Mus musculus with 4 samples.

Results

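Kruppel-like factors are zinc finger transcription factors that bind CACCC and related GC-rich sequences. Described here are 8 of them, Klf2, Klf3, Klf4, Klf5, Klf6, Klf7, Klf10 and Klf13, chosen by gene symbol from the 55357 genes counted, in the vascular and perivascular cells of the mouse ascending aorta. All 8 symbols were found once each. Droplet sequencing of single-cell RNA (10x Genomics, 3′ end, counted as unique molecular identifiers, UMIs) gave 4 libraries of male wild-type mice. Every mouse drank β-aminopropionitrile (BAPN, 1 g/kg per day), an inhibitor of the enzymes (lysyl oxidases) that cross-link elastin and collagen, for 4 weeks from 3 weeks of age. The AD group (2 libraries) received BAPN alone, and the AD_ABR group (2 libraries) was also given paquinimod, a small molecule that binds S100A9, at 10 mg/kg per day by the intragastric route. There was no group without BAPN, so every comparison is of treated with untreated diseased aorta.

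In endothelium, laminar shear stress acts through the kinase ERK5 and MEF2 factors to induce Klf2 and Klf4, which favour an anti-inflammatory and anti-thrombotic state, and the CCM proteins restrain this route. In smooth muscle, Klf4 is known as a repressor of contractile genes during phenotypic change. Klf6 is induced by vessel injury, and Klf10 is an early target of TGF-beta. Klf5 is linked to smooth muscle growth, and Klf3 is mainly a repressor. Klf7 and Klf13 are widely expressed members studied, among other cells, in neurons and lymphocytes respectively.

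The genes lie on different chromosomes in GRCm38 (GENCODE annotation), all protein coding. Klf2 spans chr8:72319033-72321656 on the plus strand and Klf4 chr4:55527143-55532466 on the minus strand. Klf6 spans chr13:5861482-5870394 (plus), Klf10 chr15:38291463-38300706 (minus) and Klf13 chr7:63886351-63938915 (minus). Klf3 spans chr5:64803388-64832901 (plus), Klf7 chr1:64029447-64122282 (minus) and Klf5 chr14:99298691-99315036 (plus). By whole gene spans, Klf3 overlaps C230096K16Rik and Klf7 overlaps Mir6899 on the same strand. Reads within the bases that such a pair shares cannot be told apart, and their number was not counted. Klf3, Klf7 and Klf13 also overlap transcripts of the opposite strand, and whether counting used strand is not given in the sources used here.

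RefSeq promoter entries (GRCm38.p6) were matched for 6 of the 8 members, all but Klf5 and Klf10. In the 250 bases before each start site, 10 motifs were searched on both strands. The stretches shown are from the 3 members with a promoter entry that changed between groups in at least 1 class below (Klf4, Klf6, Klf13) and from Klf2, whose known regulation runs through MEF2. Each reads 5′ to 3′ on the strand of its gene, with the motif in capitals and flanks in lower case: a MEF2 match in Klf2 (chr8:72318914-72318983, 148 to 79 bases before the start), the palindromic E-box CACGTG in Klf4 (chr4:55532622-55532687, 212 to 147 bases before) and in Klf6 (chr13:5861416-5861481, 73 to 8 bases before), and TGACG, one arm of a cyclic AMP response element, in Klf13 (chr7:63938937-63939001, 86 to 22 bases before).
Klf2: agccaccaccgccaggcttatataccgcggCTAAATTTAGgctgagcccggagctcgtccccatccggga
Klf4: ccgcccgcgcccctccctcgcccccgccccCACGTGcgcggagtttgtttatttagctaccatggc
Klf6: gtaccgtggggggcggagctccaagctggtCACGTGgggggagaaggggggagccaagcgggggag
Klf13: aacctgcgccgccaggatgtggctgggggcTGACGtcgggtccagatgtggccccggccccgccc

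Of 32851 mouse promoters of the same length, 2.92% held a MEF2 match, 6.02% CACGTG and 17.8% TGACG. The promoters of Klf2 and Klf4 also held TGACG. The motif CACCC, to which the factors themselves bind, was present in the promoters of Klf2, Klf3, Klf7 and Klf13, and in 52.0% of all promoters. The other motifs were absent from the 6 windows: the AP-1 site, in which 1 free base separates TGA from TCA (6.75% of promoters), the full cyclic AMP element TGACGTCA, which contains TGACG (1.55%), TATAAA (12.4%), the palindromic glucocorticoid response element (0.387%), the CArG box (1.47%) and the kappaB site (7.25%). These matches describe letters in the reference genome and not bound sites.

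The libraries held 76142840 to 99572011 UMIs, and 37259 of 41399 barcodes were kept as cells (8451 to 9872 per library). The median depth was 5268 and 7185 UMIs per cell in AD and 9452 and 8208 in AD_ABR. Rn18s-rs5, which resembles ribosomal RNA, took a larger share of UMIs in AD (5.34 and 3.23%) than in AD_ABR (1.83 and 1.37%), and fell in each of the 5 classes tested, as did Lars2. The AD libraries had 1634 and 232 neutrophil-like cells, and the AD_ABR libraries 21 and 10, so AD replicate 1 stands apart in its neutrophils. The libraries shared 11 to 28 cell barcodes in pairs. The labels do not say whether the libraries came from separate animals, so p-values measure only the spread between these libraries.

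Classes were rebuilt from marker genes and carry the ending -like. The smooth muscle-like class held 8881 cells (clusters 0 and 1), fibroblast-like 11396 (clusters 2, 4, 5 and 6), endothelial-like 1193 (cluster 11), pericyte-like 1239 (clusters 13 and 22) and macrophage-like 4147 (clusters 3 and 10). No marker of its own list was at 0 UMIs in any of these classes. By the rule used for naming, detection in 10% of a cluster's cells, fewer markers counted. Cluster 13, with 1032 of the pericyte-like cells, had 4 of 7 pericyte markers and cluster 22 had 6. Cluster 11 had 8 of 9 endothelial and cluster 1 had 7 of 8 smooth muscle markers. Pericyte-like cells had 7 pericyte markers at 3140 to 3768 CPM (UMI counts of a gene scaled by the class total, in edgeR's usual unit), 8 smooth muscle markers at 18286 and 24072 CPM in AD and 22953 and 23570 CPM in AD_ABR, and 9 fibroblast markers at 5831 to 7171 CPM. Smooth muscle markers were thus the larger sum there. Endothelial markers summed to 6270 and 6503 CPM in AD and 6851 and 6449 in AD_ABR, whereas in the other 4 classes they reached at most 87.9 CPM. In the fibroblast-like and macrophage-like classes the 2 groups were made up of different clusters: cluster 3, which expresses Arg1, led the macrophage-like cells of AD (1730 and 756 cells), and cluster 10, which expresses Folr2, those of AD_ABR.

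Endothelial-like cells had the highest levels of Klf2, Klf3, Klf4, Klf7, Klf10 and Klf13 among the 8 named classes that had 50 or more cells per library. Klf2 stood at 2094 CPM ± 252 (SD over 4 libraries) there, with no overlap with fibroblast-like cells, the next class at 1022 ± 221. Pericyte-like (999.9), macrophage-like (943), chondrocyte-like (817), dendritic-like (732), smooth muscle-like (691) and proliferating (437) cells followed, each overlapping its neighbour. Outside these classes, neutrophil-like cells had Klf2 at 4624 and 2524 CPM in AD, from 1634 and 232 cells. In AD_ABR they had 2000 and 3314 CPM, from 21 and 10 cells. An unnamed cluster (cluster 12) had Klf4 at 1557 and 1469 CPM in AD and 1384 and 1345 CPM in AD_ABR. This was more than in endothelial-like cells of the same library, except in AD replicate 1, where those had 1595 CPM. Klf13 in Schwann-like cells stood at 210 and 447 CPM in AD and 439 and 457 CPM in AD_ABR, from 46 to 196 cells. Klf7 reached 332 CPM in Schwann-like and 327 CPM in lymphatic endothelial-like cells, each in AD_ABR replicate 2. Lymphatic endothelial-like cells had more Klf2 than endothelial-like cells in both AD_ABR libraries, from 37 and 26 cells, and less in both AD libraries. Their Klf3 was below the endothelial-like level of the same library, but in AD_ABR replicate 1 it was above the endothelial-like level of the other libraries.

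Klf3 and Klf7 had the same endothelial peak among the 8 classes. Klf3 stood at 237 CPM ± 59.5 in endothelial-like cells against 102 ± 7.22 in fibroblast-like cells and 57.8 to 80.8 CPM in the other 6 classes. Klf7 stood at 300 CPM ± 30.6 against 126 ± 15.4 in fibroblast-like cells and 58.9 to 110 CPM elsewhere. For both genes the endothelial-like libraries lay above every library of the other 7 classes, and fibroblast-like cells also lay apart from the third class. For Klf3 fibroblast-like cells did overlap chondrocyte-like cells, the fourth class, at a lowest of 96.7 CPM against a highest of 98.0 CPM. Across the 8 class means the pair had a Pearson r of 0.93, a description over classes that share libraries.

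The remaining members were graded. Klf4 stood at 1254 CPM ± 262 in endothelial-like and 1171 ± 119 in fibroblast-like cells, which overlapped, then at 808 ± 127 in pericyte-like cells and lowest in smooth muscle-like cells at 398 ± 71.2. Klf10 ran from 143 CPM ± 35.1 in endothelial-like to 21.4 ± 5.24 in smooth muscle-like cells, which did not overlap with pericyte-like cells, the class above. They did overlap chondrocyte-like cells, whose lowest library had 21.3 CPM, against a smooth muscle-like highest of 25.8 CPM. Klf13 ran from 236 CPM ± 41.1 in endothelial-like to 120 ± 46.7 in proliferating cells, with each class overlapping the next. Klf6 had another order: macrophage-like cells were highest at 1765 CPM ± 224, apart from dendritic-like cells at 1077 ± 223, and endothelial-like cells came sixth at 801 ± 356.

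Klf5 was scarce throughout. It stood at 7.97 CPM ± 2.59 in pericyte-like, 5.60 ± 1.48 in fibroblast-like, 3.80 ± 1.06 in endothelial-like and 2.86 ± 0.66 in smooth muscle-like cells, all above macrophage-like cells at 0.509 ± 0.14. In endothelial-like cells this came from 9, 12, 9 and 7 UMIs in the 4 libraries, and Klf5 did not pass the filter on low counts there or in macrophage-like cells.

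**Figure D1:**
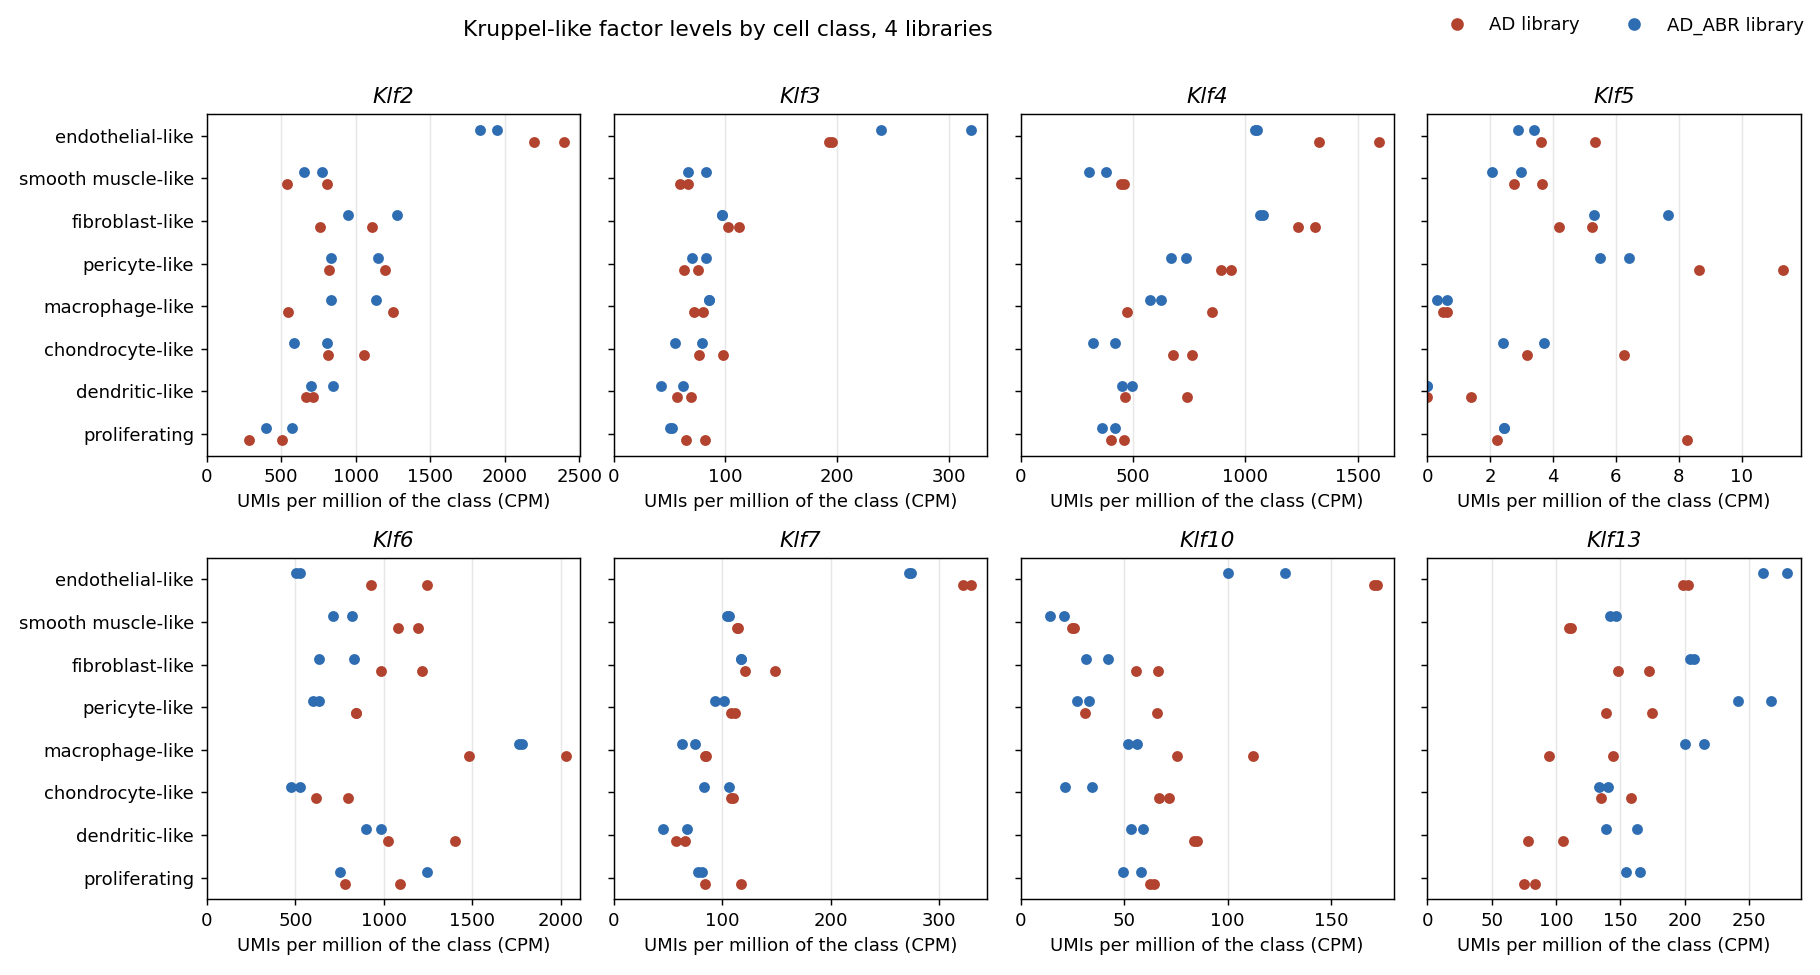
Level of each Kruppel-like factor (x axis, CPM of the class, linear, its own scale in each panel) in the 8 classes with at least 50 cells per library (y axis), 1 point per library, red for AD and blue for AD_ABR. The endothelial-like points of Klf2, Klf3 and Klf7 lie to the right of all others, whereas Klf6 is highest in macrophage-like cells.

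Genes with the most similar pattern over the 8 class means were found among 8818 genes. Ier2, an immediate early gene, was nearest to Klf4 (Pearson r = 0.99 on log2(CPM + 1)), followed by Irf1 (0.91) and Klf13 (0.90). Erap1, Ezh1 and Kmt2e were nearest to Klf2 (0.94 to 0.95), and Cr1l, Cir1 and Tgfa to Klf3 (0.96 to 0.99). Unc13b, Wdr44 and Cgnl1 were nearest to Klf7, Ankrd13c, Cmip and H2-Q4 to Klf10, Zhx1 and Esr1 to Klf13, Map1s, G6pdx and Vps26a to Klf6, and Socs5, Fut8 and Mpzl1 to Klf5 (all 0.93 to 0.99).

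AD_ABR and AD were then compared within each class, on UMIs summed per library, with edgeR's quasi-likelihood test and Benjamini-Hochberg adjustment over all genes of the class. In endothelial-like cells 3 of the 7 members that passed the filter fell (Klf6, Klf10 and Klf4) and none rose, beside 5.59% of all 10766 genes called (1.53% rose and 4.06% fell). All 7 had an unadjusted p under 0.05 there, 2 higher and 5 lower in AD_ABR. The share of all genes under this unadjusted threshold was not computed, here or for the unadjusted counts below, so such counts have nothing to be judged against. Of 8 in smooth muscle-like cells 1 rose (Klf13) and 1 fell (Klf6), beside 14.7% of genes (6.57% rose and 8.17% fell). In fibroblast-like cells 1 of 8 fell (Klf10), beside 8.03% (3.89% rose and 4.14% fell). In pericyte-like cells Klf13 rose and Klf6 fell, beside 6.32% (2.09% rose and 4.22% fell). In macrophage-like cells Klf13 rose and Klf10 fell of 7 that passed the filter, beside 8.49% (4.1% rose and 4.39% fell). Klf6, Klf10, Klf4 and Klf7 had negative and Klf13 positive log2 fold changes in all 5 classes, which come from the same 4 libraries.

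**Figure D2:**
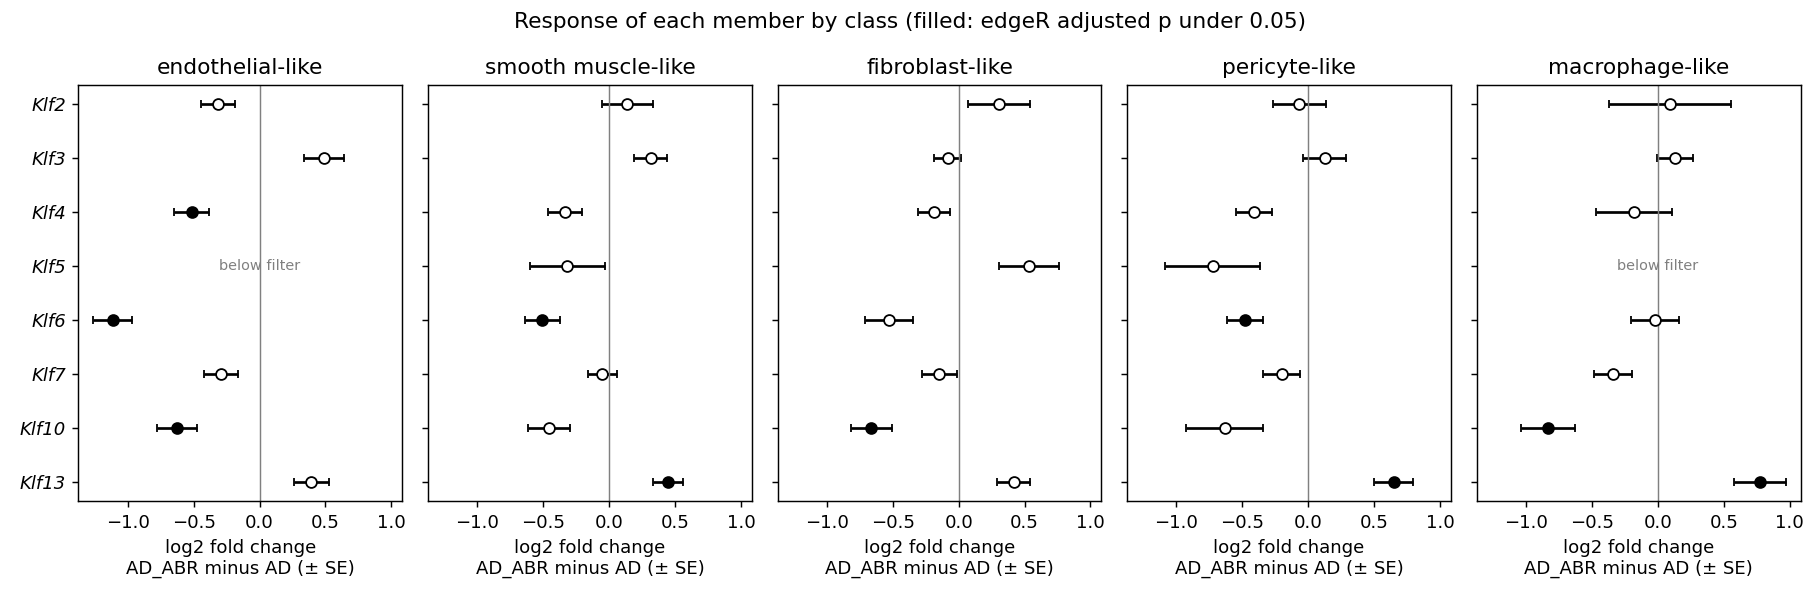
Log2 fold change of each member, AD_ABR minus AD (x axis, ± SE), in the 5 classes tested, filled where the edgeR adjusted p was under 0.05. Klf13 lies right of 0 and Klf6 and Klf10 lie left of it in every panel, and Klf6 in endothelial-like cells is farthest from 0 at −1.11.

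Klf6, the injury-induced member, had the largest log2 fold change of the members in these fits. In endothelial-like cells it stood at 1247 and 929 CPM in AD and at 525 and 503 CPM in AD_ABR. Both AD libraries lay above both AD_ABR libraries, and the log2 fold change was −1.11 ± 0.15 SE (adjusted p = 0.000715). The fall was called under each of the 11 alternative settings, with log2 fold changes of −1.29 to −0.91 and adjusted p of at most 0.0428. When every cell was thinned to 2000 UMIs, 84.4 and 72.0% of the AD endothelial-like cells held a Klf6 UMI, against 57.5 and 51.0% in AD_ABR (exact 95% intervals 78.5 to 89.2, 67.6 to 76.1, 50.8 to 64.0 and 44.6 to 57.3%, which cover counting error only). Thinning left out 10 and 35 shallower cells in AD and 11 and 23 in AD_ABR. Unthinned, the shares were 95.0 and 86.4% against 85.4 and 81.4%, at median depths of 6760, 5653, 8673 and 6977 UMIs. None of the 6 classes in which shares were computed is one that should lack Klf6, so the part of free RNA was not tested.

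Klf6 also fell in smooth muscle-like cells, from 1080 and 1195 CPM in AD to 819 and 712 CPM in AD_ABR (log2 fold change −0.51 ± 0.13, adjusted p = 0.0154). The groups did not overlap, and thinned shares of positive cells were 77.6 and 82.6% against 67.9 and 65.8%. Without AD_ABR replicate 2 the adjusted p was 0.275 at a log2 fold change of −0.41. In pericyte-like cells it fell from 845 and 842 CPM to 602 and 635 CPM (−0.48 ± 0.13, adjusted p = 0.0473). This call was lost without either AD_ABR library (adjusted p = 0.471 without replicate 1 and 0.423 without replicate 2) and in cluster 13 alone, where the log2 fold change was −0.25 (adjusted p = 0.442). It was also lost without the filter (adjusted p = 0.0725), at resolution 0.5 (0.0912), when clustered without the listed genes (0.26) and without doublet removal (−0.30, adjusted p = 0.375).

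In fibroblast-like cells Klf6 stood at 982 and 1218 CPM in AD and 632 and 831 CPM in AD_ABR. The groups did not overlap, but the difference did not pass the test (−0.53 ± 0.18, adjusted p = 0.114). In macrophage-like cells, where Klf6 was highest of the 8 classes, it stood at 2030 and 1482 CPM in AD and 1781 and 1766 CPM in AD_ABR. The AD_ABR libraries lay between those of AD (−0.02 ± 0.18, adjusted p = 0.961). The change in endothelial-like minus that in smooth muscle-like cells was −0.60 ± 0.16 in a test of the difference, with an adjusted p of 0.0681. It was −0.88 without AD replicate 2 (adjusted p = 1.74e-11), −0.30 without AD replicate 1 (adjusted p = 0.252) and −0.66 without the filter on low counts (adjusted p = 2.28e-06). Against fibroblast-like cells the difference was −0.55 ± 0.33 (adjusted p = 0.655), and it was −0.92 without AD replicate 2 (adjusted p = 1.12e-09), −0.22 without AD replicate 1 (adjusted p = 0.502) and −0.62 without the filter (adjusted p = 0.00491).

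Klf10, the TGF-beta early gene, had a negative log2 fold change in all 5 classes and fell in 3. In endothelial-like cells it stood at 171 and 172 CPM in AD and 128 and 100.1 CPM in AD_ABR, without overlap (−0.63 ± 0.15, adjusted p = 0.0283). In fibroblast-like cells it fell from 66.5 and 55.9 CPM to 42.4 and 31.7 CPM (−0.66 ± 0.16, adjusted p = 0.0465). In macrophage-like cells it fell from 112 and 75.5 CPM to 52.0 and 56.2 CPM (−0.83 ± 0.21, adjusted p = 0.0491). All 3 pairs of groups were apart, with adjusted p close to the threshold.

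The Klf10 calls were lost without single libraries and under other cell groupings. In endothelial-like cells the adjusted p was 0.103 without AD_ABR replicate 1 (log2 fold change −0.80) and 0.470 without AD_ABR replicate 2 (−0.46), 0.0976 with coarser clustering at resolution 0.5, 0.147 without doublet removal and 0.0851 by DESeq2. In fibroblast-like cells it was 0.154 without AD replicate 1, 0.0566 without AD replicate 2, 0.242 without AD_ABR replicate 2 (log2 fold change −0.48), 0.058 at resolution 0.5, and 0.127 and 0.119 in clusters 5 and 6 alone (−0.70 and −0.84). In macrophage-like cells it was 0.286 and 0.306 without AD_ABR replicates 1 and 2, 0.0536 at resolution 0.5, 0.175 when cells were clustered without the listed genes and 0.11 without doublet removal. The macrophage-like log2 fold change was −0.50 without AD replicate 1, where the call held, and the log2 fold changes in the Arg1 cluster 3 and the Folr2 cluster 10 alone were −0.59 and −0.52 (adjusted p = 0.232 and 0.265). Klf10 in smooth muscle-like cells, 25.8 and 24.8 CPM against 20.8 and 14.3 CPM, did not pass (−0.45 ± 0.16, adjusted p = 0.0687), but passed without AD replicate 1 (0.0269), AD replicate 2 (0.0423) or AD_ABR replicate 1 (0.00423). In pericyte-like cells the groups overlapped, at 66.1 and 31.0 CPM against 32.8 and 27.5 CPM (−0.63 ± 0.29, adjusted p = 0.255), and without AD replicate 2 the log2 fold change was −1.14 (adjusted p = 2.37e-05).

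Other TGF-beta early genes moved in both directions in 4 of the 5 classes and only downward in macrophage-like cells. Of the 10 listed, 1 rose and 1 fell in endothelial-like cells, 1 rose and 1 fell in smooth muscle-like cells, 3 rose and 1 fell in fibroblast-like cells, and 2 rose and 1 fell in pericyte-like cells. In macrophage-like cells 4 fell and none rose, and the list's median was −0.60 on the log2 scale, beside −0.004 over all genes there. Bhlhe40, a circadian and hypoxia-responsive repressor, fell in endothelial-like cells (322 and 383 CPM against 108 and 117 CPM, log2 fold change −1.69 ± 0.15, adjusted p = 4.8e-05). Ccn2, a matricellular growth factor gene, rose there from 321 and 304 CPM to 454 and 472 CPM (0.53 ± 0.13, adjusted p = 0.0297). In fibroblast-like cells Ccn2 rose (1.17 ± 0.17) and Smad7, the feedback inhibitor of TGF-beta signalling, fell (−0.78 ± 0.17).

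Klf4 fell in endothelial-like cells. It stood at 1595 and 1326 CPM in AD and 1052 and 1043 CPM in AD_ABR, without overlap (−0.51 ± 0.13, adjusted p = 0.0362). After thinning, a Klf4 UMI was held by 90.6 and 84.7% of AD cells and by 75.9 and 75.3% of AD_ABR cells, against 96.5, 93.9, 96.7 and 88.3% unthinned. Without AD_ABR replicate 1 the adjusted p was 0.359 and without AD_ABR replicate 2 it was 0.421, at log2 fold changes of −0.51 and −0.50. The call was also lost at resolution 0.5 (−0.43, adjusted p = 0.182) and without doublet removal (−0.34, adjusted p = 0.253). Lymphatic endothelial-like cells, too few in AD_ABR to be tested (37 and 26 cells), went the other way in thinned shares. A Klf4 UMI was held by 66.5 and 65.8% of their AD cells, against 80.6 and 84.6% of 36 and 26 AD_ABR cells.

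In the mural cells Klf4 was lower in both AD_ABR libraries but did not pass the test. Smooth muscle-like cells had 446 and 460 CPM in AD and 381 and 305 CPM in AD_ABR (−0.34 ± 0.13, adjusted p = 0.0842, and 0.035 without AD replicate 1). Pericyte-like cells had 936 and 892 CPM in AD and 667 and 737 CPM in AD_ABR (−0.41 ± 0.14, adjusted p = 0.0969, and 0.0115 and 0.00211 without AD replicates 1 and 2). In fibroblast-like cells it stood at 1308 and 1232 CPM in AD and 1064 and 1078 CPM in AD_ABR (−0.18 ± 0.12, adjusted p = 0.36). In macrophage-like cells the groups overlapped, at 852 and 473 CPM in AD and 574 and 626 CPM in AD_ABR. Without AD replicate 1 the macrophage-like log2 fold change turned to 0.32 (adjusted p = 0.195), and without AD replicate 2 it was −0.55 (adjusted p = 0.00453).

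Of the contractile genes that Klf4 is known to repress, 1 rose and 1 fell of 10 in smooth muscle-like cells. Tagln, an actin-binding protein of contractile muscle, rose from 11133 and 12309 CPM to 15063 and 16335 CPM (0.49 ± 0.15, adjusted p = 0.0413). Des, the intermediate filament desmin, fell from 241 and 193 CPM to 148 and 156 CPM (−0.44 ± 0.12, adjusted p = 0.021). The median log2 fold change of the list was −0.09, and that of all genes was −0.02. Of 10 genes of modulated smooth muscle, 6 fell and 1 rose, among them Spp1 (osteopontin), at 30.1 and 22.4 CPM against 1.17 and 1.54 CPM.

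Klf2, the flow-induced endothelial factor, passed neither edgeR's test nor DESeq2's in any class, and its unadjusted p was under 0.05 in 1. In endothelial-like cells it stood at 2399 and 2194 CPM in AD and 1834 and 1949 CPM in AD_ABR, so both AD_ABR libraries were lower (−0.32 ± 0.13, adjusted p = 0.174, and 0.0108 without AD replicate 2). Thinned shares of positive cells were 93.2 and 91.9% in AD and 91.2 and 92.0% in AD_ABR. Smooth muscle-like groups overlapped, at 539 and 804 CPM against 650 and 771 CPM (0.14 ± 0.19). In fibroblast-like cells they overlapped at 759 and 1109 CPM against 945 and 1275 CPM (0.31 ± 0.23), and in pericyte-like cells at 821 and 1199 CPM against 833 and 1146 CPM (−0.07 ± 0.20).

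In each of these 3 classes replicate 2 had more Klf2 than replicate 1 of its own group. Macrophage-like cells had 1251 and 548 CPM in AD and 836 and 1135 CPM in AD_ABR, the widest spread of the 5 classes (0.09 ± 0.46). The direction of Klf2 turned with single libraries. Smooth muscle-like cells gave −0.14 without AD replicate 1 and 0.51 without AD replicate 2 (adjusted p = 0.00208). In macrophage-like cells it was 0.83 without AD replicate 1 (adjusted p = 2.53e-05), −0.38 without AD replicate 2 and −0.16 without AD_ABR replicate 2. In pericyte-like cells it was 0.25 without AD replicate 2 and 0.15 without AD_ABR replicate 1. The Klf2 response in endothelial-like minus that in fibroblast-like cells was −0.61 ± 0.25 (adjusted p = 0.454), and minus that in smooth muscle-like cells −0.48 ± 0.25 (adjusted p = 0.464). Without AD replicate 2 these were −0.96 and −0.83, both past the test (adjusted p = 1.09e-11 and 7.6e-12), and without AD replicate 1 they were −0.32 and −0.12 (adjusted p = 0.122 and 0.777). Without the filter on low counts both passed, at −0.68 and −0.55 (adjusted p = 5.22e-06 and 0.000324).

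Upstream of Klf2 and Klf4, 1 of 14 listed regulators fell in endothelial-like cells and none rose. This was Mef2c, a MEF2 factor, at 83.3 and 64.4 CPM in AD and 50.7 and 38.6 CPM in AD_ABR (−0.74 ± 0.19, adjusted p = 0.034). In smooth muscle-like cells Ccm2 and Pdcd10, genes of the CCM complex, rose (0.45 ± 0.13 and 0.48 ± 0.12). Heg1, the receptor that anchors this complex, and Mef2a fell there (−0.54 ± 0.13 and −0.40 ± 0.12). Heg1 also fell in fibroblast-like cells, from 305 and 335 CPM to 156 and 175 CPM (−0.90 ± 0.12, adjusted p = 0.0131).

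Downstream, the endothelial genes known to be induced and those known to be repressed by Klf2 or Klf4 both held genes that fell. Of 11 induced genes that passed the filter, 3 fell and 1 rose in endothelial-like cells. Dusp5, a phosphatase of ERK, fell from 40.2 and 34.5 CPM to 16.9 and 15.2 CPM (−1.24 ± 0.21, adjusted p = 0.00341), and Aqp1, a water channel, from 623 and 567 CPM to 325 and 340 CPM (−0.88 ± 0.13, adjusted p = 0.00144). Slc9a3r2, a scaffold protein, rose from 297 and 308 CPM to 455 and 420 CPM (0.49 ± 0.13, adjusted p = 0.045).

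Of 8 repressed genes that passed the filter, 5 fell and none rose in endothelial-like cells. Sele, the leukocyte adhesion molecule E-selectin, fell from 352 and 344 CPM to 67.5 and 40.2 CPM (−2.72 ± 0.20, adjusted p = 2.28e-05). Ccl2, a monocyte chemokine, fell from 36.6 and 47.2 CPM to 5.63 and 13.1 CPM (−2.24 ± 0.30, adjusted p = 0.000779). The median log2 fold change was −0.18 over the induced list and −1.27 over the repressed list, beside −0.003 over all genes.

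Immediate early and dissociation stress genes were also among those that fell in endothelial-like cells. Klf4, Klf6 and Klf10 went the same way there, whereas Klf3 and Klf13 were higher in AD_ABR. Of the 18 listed, 10 fell and none rose in endothelial-like cells, and their summed level was 32594 and 28966 CPM in AD against 17120 and 19231 CPM in AD_ABR, with none of the 18 at 0. Zfp36, which destabilises cytokine mRNAs, fell from 1495 and 1350 CPM to 506 and 584 CPM (−1.42 ± 0.14, adjusted p = 6.69e-05). Atf3, a stress-induced factor, fell from 2177 and 2331 CPM to 776 and 986 CPM (−1.39 ± 0.15, adjusted p = 0.000148). Among smooth muscle-like cells 7 fell and 2 rose (sums 26218 and 27876 against 23811 and 22112 CPM). In pericyte-like cells 2 fell and 1 rose. By edgeR none passed in fibroblast-like cells (4 higher and 2 lower at an unadjusted p under 0.05) or in macrophage-like cells (1 higher and 1 lower). The part of these genes, which also respond to tissue digestion, in the changes of Klf4, Klf6 and Klf10 was not tested.

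Markers of other cell types were also counted within the endothelial-like class. Its 7 neutrophil markers summed to 158 and 1.81 CPM in AD and 21.01 and 0.82 CPM in AD_ABR, with Ly6g at 0, and its 8 macrophage markers to 29.0 to 52.6 CPM, with Fcgr1 at 0. Its 8 smooth muscle markers summed to 1029 and 1192 CPM in AD and 1364 and 1390 CPM in AD_ABR, and its 9 fibroblast markers to 1522 to 2184 CPM, none at 0. The lymphatic endothelial (73.8 and 55.0 against 25.5 and 25.0 CPM, Mmrn1 at 0), proliferating (57.9 and 35.1 against 13.5 and 19.7 CPM, none at 0) and B cell lists (55.5 and 50.8 against 31.5 and 23.0 CPM, with Pax5 at 0) were each higher in both AD libraries. Their part in the changes of the members was not tested. Leaving out AD replicate 1, which had the highest neutrophil sum, gave a Klf6 log2 fold change of −0.91 from a lone AD library. The part of RNA from neutrophils was not tested. The part of Rn18s-rs5 and Lars2, which fell by 1.40 and 0.95 on the log2 scale in these cells, was not tested.

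Klf13 separated the groups in all 5 classes, with each AD_ABR library above each AD library. In smooth muscle-like cells it rose from 112 and 110 CPM to 142 and 147 CPM (0.45 ± 0.11, adjusted p = 0.0129). In pericyte-like cells it rose from 139 and 175 CPM to 241 and 268 CPM (0.65 ± 0.15, adjusted p = 0.0152). In macrophage-like cells it rose from 94.6 and 144 CPM to 201 and 215 CPM (0.77 ± 0.20, adjusted p = 0.0498).

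In fibroblast-like and endothelial-like cells the same separation did not pass the test. Fibroblast-like cells had 148 and 173 CPM in AD and 207 and 204 CPM in AD_ABR (0.42 ± 0.12, adjusted p = 0.0806, and 0.00653 without AD replicate 2). Endothelial-like cells had 199 and 203 CPM in AD and 280 and 261 CPM in AD_ABR (0.39 ± 0.13, adjusted p = 0.106, and 0.0164 without AD replicate 2). The Klf13 response did not pass a test of difference between classes, at −0.06 ± 0.12, −0.05 ± 0.12 and −0.0047 ± 0.14 for endothelial-like minus smooth muscle-like, fibroblast-like minus smooth muscle-like and endothelial-like minus fibroblast-like cells.

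The Klf13 calls were likewise lost under some settings. In smooth muscle-like cells the adjusted p was 0.137 without AD_ABR replicate 2, at a log2 fold change of 0.43. By cluster it was 0.00266 in cluster 1 (log2 fold change 0.57) and 0.154 in cluster 0 (0.26). In pericyte-like cells it was 0.0557 and 0.227 without AD_ABR replicates 1 and 2, 0.112 at resolution 0.5 and 0.0687 in cluster 13 alone. The pericyte-like log2 fold change was 0.46 when cells were clustered without the listed genes (adjusted p = 0.295) and 0.45 without doublet removal (adjusted p = 0.141). In macrophage-like cells the adjusted p was 0.234 and 0.367 without AD_ABR replicates 1 and 2, 0.0507 at resolution 0.5, 0.266 when clustered without the listed genes and 0.1 without doublet removal. The macrophage-like log2 fold change ran from 0.51 without AD replicate 1 to 1.10 without AD replicate 2, where the call held. The macrophage-like log2 fold change of Klf13 was 0.88 within the Arg1 cluster 3 and 0.63 within the Folr2 cluster 10 (adjusted p = 0.0884 and 0.0998), so its direction was the same inside both.

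**Figure D3:**
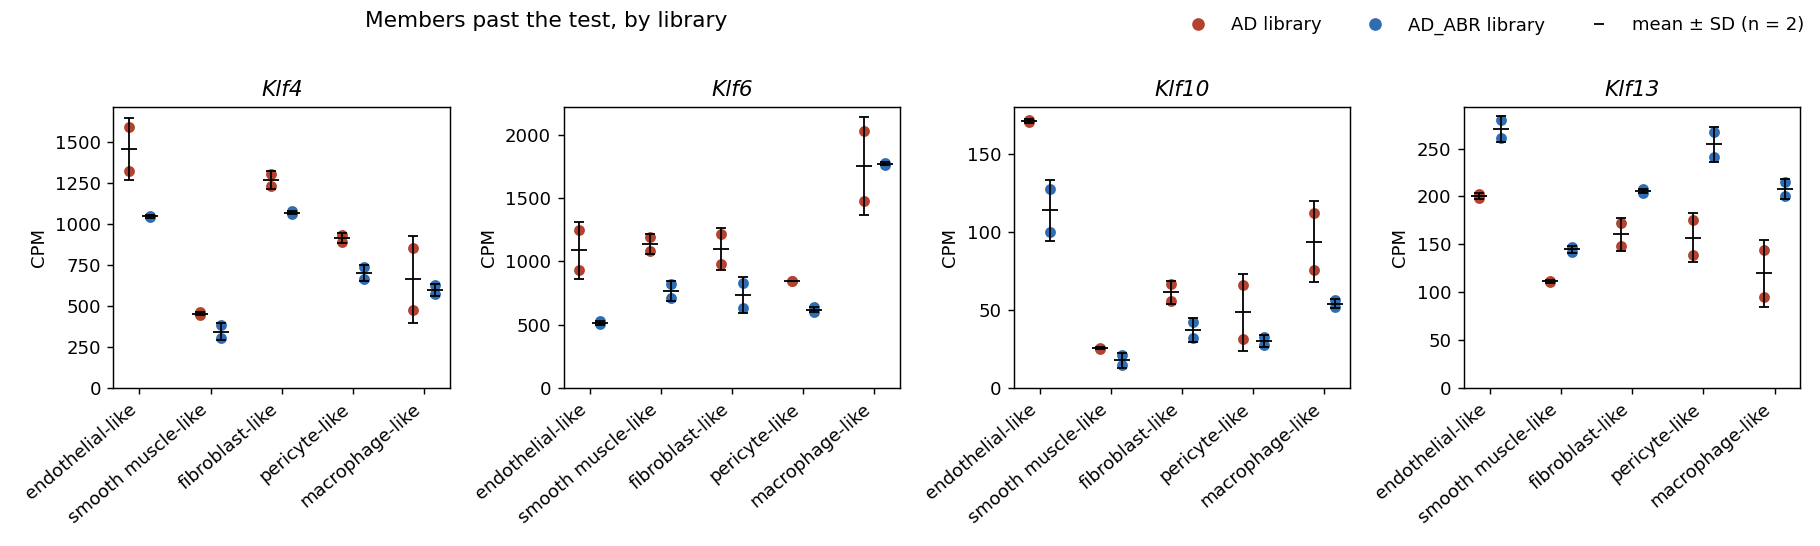
Level of the 4 members called in at least 1 class (y axis, CPM, from 0) in 5 classes (x axis), 1 point per library, red for AD and blue for AD_ABR, with black marks for the mean ± SD of 2 libraries. Klf13 is higher in AD_ABR throughout, and the Klf6 groups are widest apart in endothelial-like cells and overlap in macrophage-like cells.

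Klf3, Klf7 and Klf5 passed neither edgeR's test nor DESeq2's in any class, although Klf3 and Klf7 each had an unadjusted p under 0.05 in 2 classes. Klf3 in endothelial-like cells stood at 196 and 192 CPM in AD and 320 and 239 CPM in AD_ABR, without overlap (0.49 ± 0.15, adjusted p = 0.0831), and passed without AD replicate 1 (0.00667) or AD replicate 2 (0.00411). In smooth muscle-like cells it was 66.3 and 59.7 CPM against 82.9 and 66.1 CPM, which overlapped (0.31 ± 0.13, adjusted p = 0.0981, and 0.37 with adjusted p = 0.0365 without the filter). In fibroblast-like cells it went the other way, at 112 and 102 CPM against 96.7 and 97.01 CPM (−0.08 ± 0.10, adjusted p = 0.623). The test of the difference gave 0.58 ± 0.15 for endothelial-like minus fibroblast-like cells (adjusted p = 0.0549) and −0.41 ± 0.12 for fibroblast-like minus smooth muscle-like cells (adjusted p = 0.0551), both short of the threshold. The first passed without AD replicate 1 or 2 (0.0366 and 0.00386) and the second without AD_ABR replicate 2 (0.0483), and both passed without the filter (0.0246 and 0.0114).

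Klf7 in endothelial-like cells was tight within groups, at 322 and 330 CPM in AD and 272 and 274 CPM in AD_ABR (−0.29 ± 0.13, adjusted p = 0.221). In the other 4 classes its log2 fold changes were −0.34 to −0.05. Klf5 passed the filter in 3 classes, with log2 fold changes of 0.53 ± 0.23 in fibroblast-like cells (adjusted p = 0.182), −0.32 ± 0.28 in smooth muscle-like cells and −0.73 ± 0.36 in pericyte-like cells (adjusted p = 0.271). The pericyte-like values were 11.3 and 8.64 CPM in AD and 6.42 and 5.50 CPM in AD_ABR, from 13 to 26 UMIs per library. Fibroblast-like minus smooth muscle-like cells differed by 0.89 ± 0.29 for Klf5 (adjusted p = 0.0801). The difference was 1.18 without AD replicate 1 (adjusted p = 0.0294) and 0.40 without AD replicate 2 (adjusted p = 0.685).

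Among the 3 pairs of endothelial-like, fibroblast-like and smooth muscle-like cells, 0 of the 8 members passed the test of a difference in response. Of all genes, 3.68% passed for endothelial-like minus smooth muscle-like, 7.6% for fibroblast-like minus smooth muscle-like and 2.29% for endothelial-like minus fibroblast-like cells. At an unadjusted p under 0.05 the members were Klf6 in the first contrast, Klf3 and Klf5 in the second, and Klf3 and Klf4 in the third. A call in 1 class and not in another is therefore not shown to be a difference between classes.

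Over all kept cells together, 0 of the 8 members passed edgeR's test, beside 3.38% of 20196 genes (0.975% rose and 2.4% fell), 3 had an unadjusted p under 0.05, and DESeq2 called 2 (Klf10 and Klf13). Klf10 stood at 95.3 and 62.0 CPM in AD and 37.6 and 31.7 CPM in AD_ABR (−1.07 ± 0.22, adjusted p = 0.0616, and 0.037 and 0.00701 without AD replicates 1 and 2). Neutrophil-like cells, with Klf10 at 527 and 358 CPM, held 21.6 and 2.4% of all Klf10 UMIs in AD and 0.125 and 0.437% in AD_ABR. The endothelial-like class held 4.95 to 8.87% of all Klf2 UMIs, and fibroblast-like cells 16.4 to 50.7%.

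**Figure D4:**
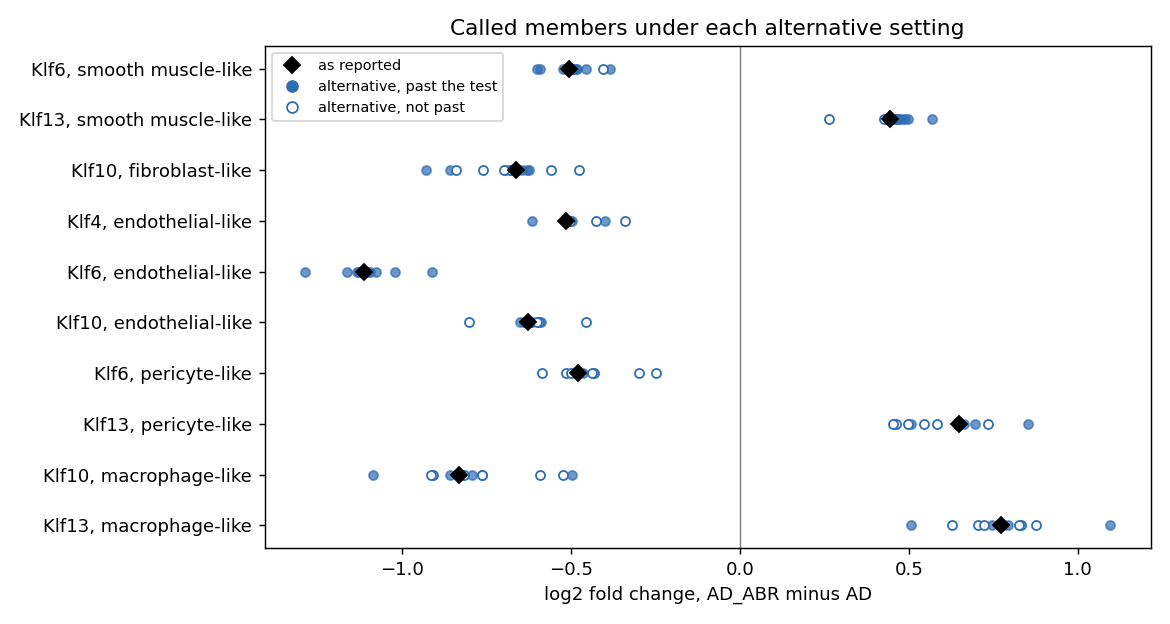
Log2 fold change (x axis, AD_ABR minus AD) of the 10 called pairs of member and class (y axis), as a black diamond for the reported value and 1 circle per alternative setting, filled where the call was kept. No circle crosses 0, and Klf6 in endothelial-like cells is the pair with no open circle.

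Klf15, a glucocorticoid-induced member outside the 8, rose in 3 of the 5 classes: in smooth muscle-like cells from 13.2 and 12.8 CPM to 39.6 and 51.5 CPM (1.87 ± 0.15, adjusted p = 2.01e-06), in fibroblast-like cells from 5.69 and 8.46 CPM to 23.9 and 30.5 CPM (1.97 ± 0.22) and in pericyte-like cells from 13.0 and 15.3 CPM to 59.0 and 61.9 CPM (2.03 ± 0.21). Of the 10 other KLF and SP genes that passed the filter in smooth muscle-like cells, Klf15 rose, and Sp4 (−0.67 ± 0.14), Klf11 (−0.54 ± 0.15) and Sp1 (−0.39 ± 0.12) fell. Klf16 fell in fibroblast-like cells (−0.99 ± 0.15), and Klf9, also known to be induced by glucocorticoids, rose in macrophage-like cells from 59.5 and 90.2 CPM to 143 and 182 CPM (1.10 ± 0.22, adjusted p = 0.0245). In endothelial-like cells none of 10 passed edgeR's test and 2 had an unadjusted p under 0.05, named here after their values were seen: Klf15 (1.36 ± 0.38, adjusted p = 0.0543) and Klf16 (−1.06 ± 0.30, adjusted p = 0.0596).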

How the data were processed

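Gene by cell matrices of raw UMI counts, deposited by the authors, were used for the 4 libraries. Reads were processed with STAR, Cell Ranger 6.0 and Seurat 4.0 on GRCm38, according to the submitters' processing notes; per the file headers, Cell Ranger 7.1.0 wrote the matrices. Whether intronic reads were counted is not given in the sources used here.

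Barcodes with at least 200 genes and under 20% mitochondrial UMIs were kept. Scrublet's highest scores were removed at 0.8% per 1000 barcodes (665 to 934 per library; its own threshold marked 1.31 to 4.81%). Cells were clustered in scanpy 1.11.5 on 2000 variable genes, 30 principal components and 15 neighbours (Leiden, resolution 1.0), which gave 28 clusters. A cluster was named where at least 3 of a class's markers were detected in 10% of its cells with a mean log2 fold of at least 1, and 3 clusters stayed unnamed. These rebuilt names may not match the authors'.

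UMIs were summed per library and class, since cells are not replicates. AD_ABR minus AD was tested with edgeR 4.0.16 (R 4.3.3; TMM, filterByExpr, robust quasi-likelihood F test), adjusted by Benjamini-Hochberg over all genes of a class at 0.05. Differences between classes were tested as an interaction with library as a block. SE was taken from the fold change and F. Levels are CPM of the summed counts. Class sums held 1149701 (pericyte-like) to 38214502 UMIs (fibroblast-like). Both fits were tested on simulated data. These gave each library of a class the same gene proportions apart from planted changes, so differences between libraries beyond the fitted spread were not covered. Coordinates came from GENCODE M21, which held 52081 of the 55357 gene identifiers.

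The members and gene lists were chosen with earlier results of these data known. Named were the members, every other KLF or SP gene past the test, and at most 2 genes past the test per list, class and direction. The pericyte-like class, the single-cluster fits and the crossed pairing were added after the data were seen. Other alternatives were size factors, no low-count filter, DESeq2 1.42.0, a replicate block, each library left out, resolution 0.5, clustering without the listed genes and no doublet removal. For Klf13, 1 gene of the pattern comparison is not reported here.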

Additional observations from a re-analysis of the deposited data

How the results depend on the processing

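The 10 calls of single members gave 124 alternative values, of which 79 kept the call, 45 lost it and 0 turned direction. The 28 other pairs of member and class gave 308, of which 31 passed the test and 12 turned direction. The cause of these changes was not tested, and the share of all genes called under each alternative setting is not given here. With 2 libraries a group, leaving out 1 leaves a lone library whose spread is assumed to be that of the other group.

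With 1 library left out, the number of members called ranged from 0 to 2 over all kept cells, 0 to 4 in smooth muscle-like, 0 to 1 in fibroblast-like, 1 to 6 in endothelial-like, 0 to 4 in pericyte-like and 0 to 3 in macrophage-like cells. The number whose response differed ranged from 0 to 2 for endothelial-like minus smooth muscle-like, 0 to 1 for fibroblast-like minus smooth muscle-like and 0 to 4 for endothelial-like minus fibroblast-like cells. Log2 fold changes that turned sign ranged as follows. Klf2 ranged from −0.14 to 0.51 in smooth muscle-like, −0.31 to 0.25 in pericyte-like and −0.38 to 0.83 in macrophage-like cells, and Klf7 from −0.31 to 0.0428 in fibroblast-like cells. Klf3 ranged from −0.0034 to 0.24 in pericyte-like cells, Klf4 from −0.55 to 0.32 and Klf6 from −0.24 to 0.24 in macrophage-like cells. The fibroblast-like minus smooth muscle-like difference of Klf6 ranged from −0.34 to 0.24.

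Without the filter, 2 members were called over all kept cells, 4 in smooth muscle-like, 3 in fibroblast-like and 1 in pericyte-like cells, Klf7 in smooth muscle-like cells turned to 0.0009, and 2, 1 and 3 responses differed in the 3 contrasts above. DESeq2 called 2 members over all kept cells and 3 in fibroblast-like cells. At resolution 0.5, 1 member was called in endothelial-like and 0 in fibroblast-like, pericyte-like and macrophage-like cells. Clustering without the listed genes called 0 in pericyte-like and macrophage-like cells, turned Klf2 in macrophage-like cells to −0.25 and the Klf6 difference of fibroblast-like minus smooth muscle-like cells to 0.0621, and gave 1 differing response in each contrast with fibroblast-like cells. Without doublet removal 1 was called in endothelial-like and 0 in pericyte-like and macrophage-like cells. With size factors 1 response differed for endothelial-like minus fibroblast-like cells. In clusters 5 and 6 (fibroblast-like), 13 (pericyte-like), 3 and 10 (macrophage-like) alone, 0 members were called.

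The labels do not say that equal replicate numbers pair libraries, and with 2 pairs the data cannot show it. Deviations of same-numbered libraries correlated at 0.28 in smooth muscle-like, 0.26 in fibroblast-like, 0.13 in endothelial-like and 0.14 in macrophage-like cells, and at −0.13 over all kept cells. With the replicate number as a block, 5 members were called in smooth muscle-like, 3 in fibroblast-like, 5 in endothelial-like and 4 in pericyte-like cells. The members this added were Klf3 (0.30, adjusted p = 0.0354), Klf4 (−0.34, 0.0426) and Klf10 (−0.50, 0.0261) in smooth muscle-like, Klf6 and Klf13 in fibroblast-like, Klf3 and Klf13 in endothelial-like, and Klf4 and Klf10 in pericyte-like cells. With the pairing crossed, 1 was called over all kept cells.

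Depth limits Klf5 most, at 2 to 12 UMIs per library in endothelial-like and macrophage-like cells, and the pericyte-like calls rest on 152 to 411 cells per library.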

Other observations

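Levels of the members also varied between clusters of 1 class, given here as values with no test. Klf6 was higher in smooth muscle-like cluster 1 (1136 CPM over 4 libraries) than in cluster 0 (701 CPM), and all 4 libraries of cluster 1 lay above their own values in cluster 0. In macrophage-like cells Klf6 stood at 2229 CPM in the Folr2 cluster 10 and 1538 CPM in the Arg1 cluster 3. Within cluster 10 it was 2502 and 2451 CPM in AD and 1982 and 1981 CPM in AD_ABR, whereas over the whole class the groups overlapped. Within cluster 3 AD replicate 1 stood apart for Klf2, at 1267 CPM against 458, 587 and 528 CPM in AD replicate 2 and the AD_ABR libraries.

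B cell-like cells, which make up 20 to 449 cells per library, had Klf2 at 1902 and 1575 CPM in AD and 2263 and 3676 CPM in AD_ABR, and no Klf5 UMI in any library. Klf10 in neutrophil-like cells was 527 and 358 CPM in AD, above the endothelial-like level of either group.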
